A study of Homo sapiens with 4 samples.

Results

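The solute carriers of the plasma membrane and of organelles other than the mitochondrion were examined in 143B, an osteosarcoma line of human origin, with FTO stably knocked down. The FTO protein is an RNA demethylase that takes the methyl group off N6-methyladenosine (m6A). The genes were chosen by symbol: SLC, a family number, A and a member number. Family SLC25 of the mitochondrial inner membrane was left out, and so were SLC2A1, SLC2A3, SLC16A3, SLC7A11, SLC7A5 and SLC3A2. This gave 130 of the 11972 genes in the deposited table, of which 125 are carriers in 41 families. The other 5 symbols carry a suffix and name proteins that are not carriers: SLC2A4RG, SLC4A1AP, SLC7A6OS, SLC9A3R1 and SLC9A3R2. By the same rule GENCODE release 29 holds 280 protein-coding carriers, so 125 of 280 were analysed here.

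The 4 libraries were 2 of 143B cells transfected with a short hairpin plasmid against FTO (shFTO) and 2 of 143B cells with a control plasmid (shCtrl). All 4 came from stable cells grown in high-glucose DMEM with 10% serum and puromycin, so the high sugar supply and the selection were shared by both groups. The labels name a single line and no separate clones or cultures. The p-values therefore rest only on how far these libraries differ, and that spread may be technical. In bulk RNA, fewer cells that express a gene and less RNA per cell cannot be told apart. Levels are in FPKM (fragments per kilobase of transcript, with each library scaled to its mapped fragments) and can be compared between genes. Each difference is shFTO minus shCtrl on the log2(FPKM + 1) scale, which understates the change of low genes.

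Solute carriers move small molecules across membranes, either down a gradient or coupled to sodium, protons or an exchanged solute. Those at the cell surface take up sugars, amino acids, phosphate and metals, and release lactate and excess ions. Those of the lysosome, Golgi apparatus and endoplasmic reticulum recycle breakdown products and supply substrates for glycosylation. In growing tumour cells the best studied ones import glutamine and other amino acids and export lactate. The m6A mark sits mostly near stop codons and in the sequence written GGACT in DNA letters, its most frequent form.

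FTO stood at 0.268 and 0.242 FPKM in shFTO libraries, against 1.14 and 0.665 FPKM in shCtrl libraries, so both shFTO values lay below both shCtrl values. Pearson's correlation across genes was 0.959 within the shFTO pair and 0.981 within the shCtrl pair, and between 0.956 and 0.970 across the groups. The sequencing depth is unknown. Of the mesenchymal and osteosarcoma markers, 8 of 11 were analysed here. They summed to 453 and 367 FPKM in shFTO libraries, against 388 and 406 FPKM in shCtrl libraries, with overlap. VIM ranged from 253 to 329 FPKM, while the bone markers RUNX2 and ALPL stayed below 1 FPKM in every library. SPARC of the same list had 67.4 and 61.3 FPKM in shFTO libraries, against 82.1 and 85.3 FPKM in shCtrl libraries. Its groups did not overlap (-0.38 ± 0.13, limma adjusted p = 0.412). CDH2 of that list went the other way, also without overlap (0.17 ± 0.14, limma adjusted p = 0.686). Of the 6 tested markers of the list 3 had a difference above 0 and 3 below, with a median of 0.0021. Epithelial markers were represented by 3 of 6 genes, which together summed to 150 and 124 FPKM in shFTO libraries, against 175 and 192 FPKM in shCtrl libraries. KRT8 and KRT18 each had an unadjusted p below 0.05 in that direction (limma adjusted p = 0.418 and 0.425). Of 3 kidney markers 2 were analysed here. LHX1 had 8.15 and 10.4 FPKM in shFTO libraries, against 4.28 and 4.58 FPKM in shCtrl libraries (0.92 ± 0.18, limma adjusted p = 0.206). PAX2 had 0.666 and 0.990 FPKM in shFTO libraries, against 0.750 and 0.861 FPKM in shCtrl libraries, with overlap. None of the 4 blood and 3 endothelial markers was analysed here. The part of these markers in the results was not tested.

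GGACT was counted in 1 transcript of each gene. It occurred in 111 of the 114 tested carriers and suffix symbols (97.4%) and in 91.3% of the 10801 tested genes with a matched transcript. The medians were 4 and 3 sites per transcript, in transcripts of median length 3671 and 3163 nt. Per kilobase the medians were 0.929 and 0.925 sites, so once length was allowed for they were nearly the same. GGACT sites are shown because this is the sequence that FTO's substrate mark most often occupies. Windows of 21 bases hold the site nearest the stop codon among those whose window crosses no exon junction. They are for 5 carriers higher and 5 lower in shFTO, those with the smallest unadjusted p in each direction once SLC45A4 is set aside, with the motif in capitals. SLC45A4 ranks between SLC2A10 and SLC12A7, and its window is not shown. Only the transcript strand was searched, and no methylation was measured.
SLC2A6: tacggggaGGACTgagaggac
SLC2A10: tgctctacGGACTgaccgctg
SLC12A7: aagctggaGGACTctgtccat
SLC20A1: cccagcgtGGACTtgaaagag
SLC17A5: gtaagctaGGACTtctacttt
SLC39A8: tccttcagGGACTcagtactt
SLC16A6: gtaagatgGGACTgtgccagc
SLC4A8: tccctggtGGACTgtgatagc
SLC22A15: cctggcatGGACTgatgtttt
SLC30A1: gcccaggaGGACTaaagctga

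These windows come from GENCODE release 29 transcripts on the GRCh38 build. Those of SLC2A6 (chr9:133471665-133471685, minus strand, exon 10 of 10), SLC12A7 (chr5:1051807-1051827, minus strand, exon 24 of 24) and SLC17A5 (chr6:73594862-73594882, minus strand, exon 11 of 11) lie in the 3′ UTR, 344, 541 and 203 bases after the stop codon. The SLC22A15 window (chr1:116067234-116067254, plus strand, exon 12 of 12) lies there too, 134 bases after the stop. The other 6 are in coding sequence. They are those of SLC2A10 (chr20:46729380-46729400, plus strand, exon 4 of 5), SLC20A1 (chr2:112659046-112659066, plus strand, exon 7 of 11) and SLC39A8 (chr4:102267911-102267931, minus strand, exon 6 of 8). These lie 179, 1032 and 386 bases before the end of the stop codon. SLC16A6 (chr17:68269227-68269247, minus strand, exon 7 of 7), SLC4A8 (chr12:51488746-51488766, plus strand, exon 18 of 25) and SLC30A1 (chr1:211575455-211575475, minus strand, exon 2 of 2) complete the set, 143, 940 and 79 bases before that end. The members higher in shFTO at an unadjusted p below 0.05 had a median of 1.21 sites per kilobase (0.568 to 2.31), and those lower had 0.927 (0.731 to 1.31), with overlapping ranges. Across the 114 tested members Spearman's rho between site density and difference was 0.08, and across all tested genes it was 0.06. These are descriptions across genes that share the same libraries.

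The carriers were mostly expressed at a low level. The median member had 3.20 FPKM over the 4 libraries, against 5.72 FPKM for all listed genes. Of the 130, 21 reached 10 FPKM, 86 lay between 1 and 10 FPKM, and 23 lay below 1 FPKM. No member was listed at 0 in any library. Their levels summed to 990.5 and 1020 FPKM in shFTO libraries, against 989 and 987 FPKM in shCtrl libraries. This was 0.466% and 0.508% of all FPKM in shFTO libraries, and 0.488% and 0.470% in shCtrl libraries, so the total overlapped between groups. The 10 highest members held between 48.4% and 50.5% of that sum in each library.

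The question put to these genes was which carriers differed between FTO knockdown and control cells. Of the 130 members, 114 reached 1 FPKM in at least 2 libraries and were tested with limma across all 10873 such genes. None of the 114 passed a Benjamini-Hochberg adjusted p of 0.05, and over all tested genes 3 passed (0.0276%). The smallest adjusted p of a member was 0.253 in limma. At an unadjusted limma p below 0.05 there were 15 members (13.2%), against 10.9% of all tested genes. Higher in shFTO were 10 of these (8.77%, background 7.11%), and lower were 5 (4.39%, background 3.74%). These shares lie near the background. Differences lay above 0 for 62 of the 114 (54.4%), against 53.8% of all tested genes. The same shares of all tested genes are the background of each class and list count below. Of the members, 16 in the authors' deposited table had p below 0.05, 10 higher and 6 lower (12.3%, against 9.25% of all listed genes). In the authors' deposited table none of them also had a 2-fold change or q below 0.05, and the smallest q of a member was 0.503. Their fold change comes from means of log2(FPKM + 1), which understates the change of low genes.

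Both shFTO libraries lay above both shCtrl libraries for 42 of the 130 members and below them for 22, and the groups overlapped for 66. The same non-overlap was seen in 25.7% and 17.6% of all listed genes. Among the tested members 59 did not overlap in either direction (51.8%), against 42.6% of all tested genes. The median difference over all 130 members was 0.05, against 0.03 over all listed genes, and over the 114 tested members it was 0.04, against 0.02 over all tested genes. No member differed by 1 or more on the log2(FPKM + 1) scale, whereas 141 tested genes did (1.30%). That scale understates low genes. The plain ratio of mean FPKM, shFTO over shCtrl, was 2.61 for SLC2A10 and 2.21 for SLC2A6, and it was 0.581 for SLC4A8. Of the tested members, 5 passed the level filter only through the group in which they were higher: SLC2A10, SLC29A3 and SLC29A4 in shFTO, and SLC4A8 and SLC16A6 in shCtrl. SLC2A10, SLC4A8 and SLC16A6 also had an unadjusted p below 0.05. The counts at that p, and the counts above and below 0, therefore include genes that the filter admitted only through their higher group. With 2 libraries per group, a permutation test (exact, two-sided) on any single gene has a smallest possible p of 0.333.

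**Figure D1:**
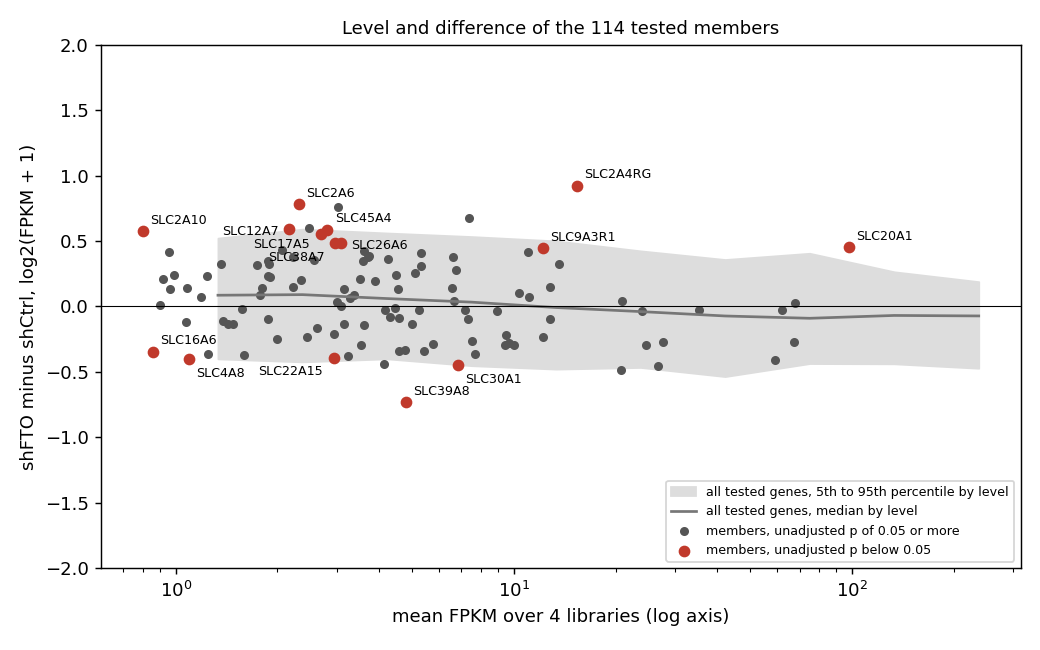
Difference (shFTO minus shCtrl, log2(FPKM + 1)) against the mean FPKM over 4 libraries (log axis) for the 114 tested members. Red points are the 15 members with an unadjusted limma p below 0.05, the grey line and band are the median and the 5th to 95th percentile of all tested genes by level, and most members lie inside the band, with SLC2A4RG highest at 0.92 and SLC39A8 lowest at -0.73.

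Among the sugar carriers, 10 of 12 tested members had a difference above 0 and 2 below, with a median of 0.35, and 3 had an unadjusted p below 0.05, all higher in shFTO. Over all tested genes 53.8% lay above 0 and 7.11% were higher at that p. Among the 3, SLC2A10 passed the level filter only through shFTO, the group in which it was higher. Under quantile normalization 8 of 12 lay above 0, with a median of 0.27. Where a mean of 5 FPKM was required 2 sugar carriers remained, 1 above and 1 below 0, with a median of 0.08. The class had a median level of 2.31 FPKM. All tested genes from 1.78 to 3.16 FPKM had a median difference of 0.09. The median was 0.19 without shFTO replicate 2 (9 of 12 above 0) and 0.22 without shFTO replicate 1 (10 of 12). The sugar families summed to 39.2 and 44.5 FPKM in shFTO libraries, against 33.8 and 34.6 FPKM in shCtrl libraries, without overlap. The class was set by family, and it therefore includes SLC5A6, which carries the vitamins biotin and pantothenate. None of the sugar carriers passed the adjusted threshold.

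SLC2A6, which encodes the facilitative hexose carrier GLUT6 of lysosomal membranes (hg19 chr9:136336217-136344259, minus strand), had 3.37 and 2.99 FPKM in shFTO libraries, against 1.20 and 1.68 FPKM in shCtrl libraries. Both shFTO values stood above both shCtrl values, and the difference was 0.78 ± 0.17 (SE; 95% interval 0.36 to 1.21; limma adjusted p = 0.253). SLC2A10 encodes GLUT10, whose loss causes arterial tortuosity syndrome (hg19 chr20:45338126-45364986, plus strand). It had 1.04 and 1.27 FPKM in shFTO libraries, against 0.486 and 0.403 FPKM in shCtrl libraries. These groups did not overlap either (difference 0.58 ± 0.14, limma adjusted p = 0.280), although the levels were low. In the same family SLC2A8 (GLUT8) and SLC2A13 (the proton-coupled inositol carrier HMIT) differed by 0.13 and 0.09, each with an unadjusted limma p above 0.4. SLC45A4, of a family of putative proton-coupled sugar carriers, had 3.51 and 3.59 FPKM in shFTO libraries, against 2.22 and 1.84 FPKM in shCtrl libraries (difference 0.59 ± 0.16, limma adjusted p = 0.302). Its libraries agreed closely within the shFTO pair. SLC50A1, the SWEET-type sugar carrier, had 3.68 and 5.01 FPKM in shFTO libraries, against 2.91 and 3.25 FPKM in shCtrl libraries (0.38 ± 0.19, limma adjusted p = 0.528). SLC37A4, the glucose-6-phosphate carrier of the endoplasmic reticulum, had 3.999 and 2.09 FPKM in shFTO libraries, against 2.32 and 1.86 FPKM in shCtrl libraries, and these groups overlapped. The sodium-coupled inositol carrier SLC5A3 lies across MRPS6 on the same strand, so its reads may be shared. It had 5.06 and 10.4 FPKM in shFTO libraries, against 6.18 and 4.71 FPKM in shCtrl libraries.

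**Figure D2:**
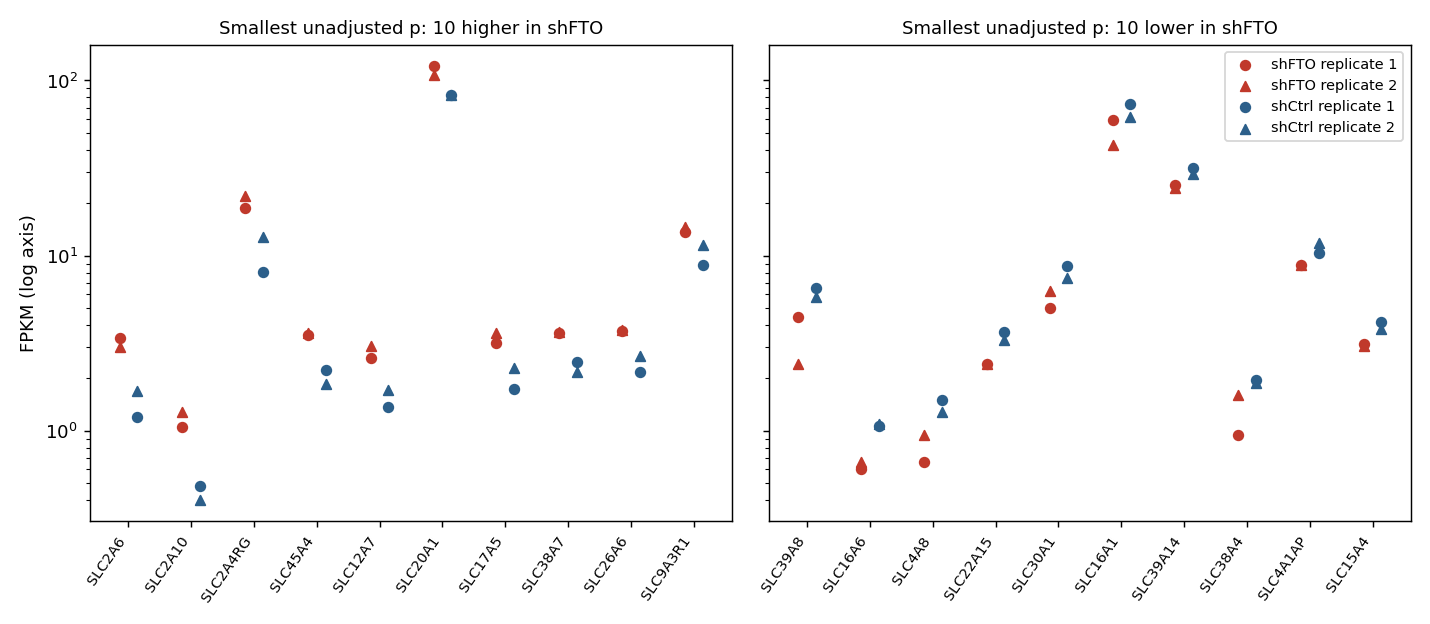
FPKM per library (log axis) of the tested members with the smallest unadjusted limma p in each direction, 10 higher in shFTO on the left and 10 lower on the right. Each point is 1 library, red for shFTO and blue for shCtrl, circles for replicate 1 and triangles for replicate 2. In all 20 the groups do not overlap, while none passed the adjusted threshold. The 20 were picked by p in these same libraries, which favours such separation, so it is no separate support. Of all tested genes 42.6% did not overlap.

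Phosphate and sulfate carriers held the most abundant member of all. SLC20A1 encodes the sodium-phosphate cotransporter PiT1, also the cell receptor of gibbon ape leukaemia virus (hg19 chr2:113403434-113421404, plus strand). It had 120.5 and 107 FPKM in shFTO libraries, against 82.7 and 82.4 FPKM in shCtrl libraries. The shFTO mean was 113.8 ± 9.5 FPKM and the shCtrl mean 82.5 ± 0.22 FPKM (SD, n = 2 each), a ratio of 1.38. The difference of 0.46 ± 0.13 did not pass (95% interval 0.13 to 0.78; limma adjusted p = 0.342). SLC20A2 (PiT2) had 6.67 and 7.23 FPKM in shFTO libraries, against 6.20 and 6.19 FPKM in shCtrl libraries (0.14 ± 0.15, limma adjusted p = 0.769). SLC26A6, which exchanges chloride for oxalate and bicarbonate, had 3.73 and 3.77 FPKM in shFTO libraries, against 2.16 and 2.66 FPKM in shCtrl libraries. Its difference was 0.48 ± 0.16 (limma adjusted p = 0.395), and the groups did not overlap. The sulfate carrier SLC26A2, known from cartilage dysplasias, had 5.34 and 5.90 FPKM in shFTO libraries, against 5.15 and 3.97 FPKM in shCtrl libraries. In this class all 4 tested members had a difference above 0, with a median of 0.36, and they did so under each of the alternatives run that kept all 4. The summed level was 137 and 125 FPKM in shFTO libraries, against 96.7 and 96.1 FPKM in shCtrl libraries, most of it from SLC20A1.

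Carriers of inorganic ions set cell volume and pH. Of 16 tested members 11 had a difference above 0 and 5 below (median 0.17), with 1 member at an unadjusted p below 0.05 in each direction. The shares of all tested genes were 53.8% above 0, and 7.11% higher and 3.74% lower at that p. Without shFTO replicate 2 the count above 0 was 9 of 16, with a median of 0.08. The class summed to 53.8 and 71.6 FPKM in shFTO libraries, against 52.6 and 50.2 FPKM in shCtrl libraries. SLC12A7, the potassium-chloride cotransporter KCC4 (hg19 chr5:1050491-1112150, minus strand), had 2.59 and 3.02 FPKM in shFTO libraries, against 1.37 and 1.70 FPKM in shCtrl libraries (0.59 ± 0.16, limma adjusted p = 0.309). The groups did not overlap. Of its relatives, the sodium-potassium-chloride cotransporter SLC12A2 (NKCC1) had a difference of -0.14, and SLC12A4 (KCC1) had 0.21.

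Lower in shFTO at an unadjusted p below 0.05 was SLC4A8, a sodium-driven chloride-bicarbonate exchanger (hg19 chr12:51785101-51909547, plus strand). It had 0.659 and 0.947 FPKM in shFTO libraries, against 1.49 and 1.28 FPKM in shCtrl libraries (-0.40 ± 0.15, limma adjusted p = 0.437), and passed the level filter only through shCtrl. SLC4A7, the sodium-bicarbonate cotransporter NBCn1 and the highest of family SLC4, had 9.64 and 16.2 FPKM in shFTO libraries, against 10.4 and 7.95 FPKM in shCtrl libraries. These groups overlapped, and so did those of the anion exchanger SLC4A2 (AE2), at 7.03 and 7.16 FPKM in shFTO libraries, against 6.61 and 7.91 FPKM in shCtrl libraries. In the sodium-proton exchanger family 4 of 6 members had a difference above 0 (median 0.26) and none had an unadjusted p below 0.05. Without shFTO replicate 2 this became 3 of 6, with a median of 0.05. SLC9A7 of the Golgi apparatus had 3.61 and 4.95 FPKM in shFTO libraries, against 2.93 and 2.89 FPKM in shCtrl libraries (0.42 ± 0.18, limma adjusted p = 0.482).

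**Figure D3:**
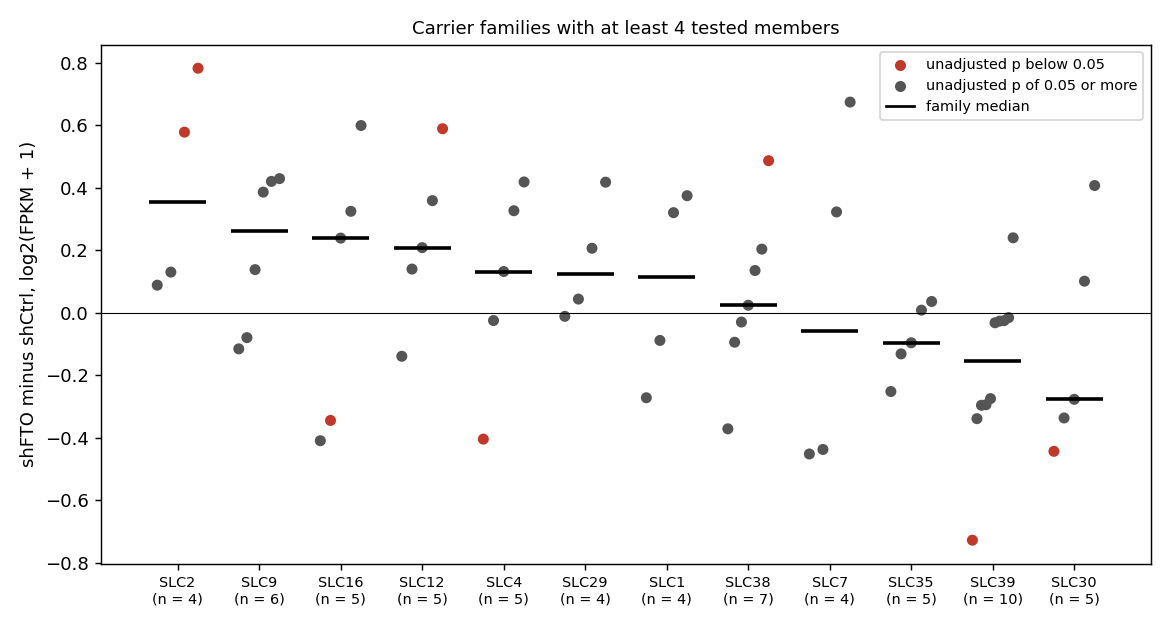
Difference (shFTO minus shCtrl, log2(FPKM + 1)) of every tested carrier in the 12 families with at least 4 tested members, ordered by the family median (black bar). Each point is 1 gene, red where its unadjusted limma p was below 0.05. The 4 tested genes of family SLC2 lie above 0, with a median of 0.35. SLC2A10 among them passed the level filter only through shFTO. Without that filter 4 of 5 SLC2 genes lay above 0, with a median of 0.13. In family SLC39 9 of the 10 genes lie below 0, with a median of -0.15.

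The amino acid carriers formed the class with the highest summed level in 3 of the 4 libraries, all but shFTO replicate 1, where the metal carriers stood higher. They summed to 242 and 318 FPKM in shFTO libraries, against 308 and 280 FPKM in shCtrl libraries, with overlap. Of 23 tested members 13 had a difference above 0 and 10 below (median 0.09), against 53.8% above 0 among all tested genes. SLC38A7 was the only one with an unadjusted p below 0.05, against 10.9% of all tested genes. Leaving out shFTO replicate 1 gave a class median of 0.16, and leaving out shCtrl replicate 2 gave 0.03. SLC38A7, a glutamine exporter of the lysosome (hg19 chr16:58699013-58719008, minus strand), had 3.59 and 3.66 FPKM in shFTO libraries, against 2.45 and 2.16 FPKM in shCtrl libraries (0.49 ± 0.15, limma adjusted p = 0.369). Its groups did not overlap. The lysosomal arginine sensor SLC38A9 had 2.21 and 2.97 FPKM in shFTO libraries, against 2.39 and 1.84 FPKM in shCtrl libraries, with overlap.

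The abundant glutamine carriers did not separate the groups. SLC38A2 (SNAT2), a sodium-coupled neutral amino acid carrier that is induced on amino acid shortage, had 52.7 and 86.1 FPKM in shFTO libraries, against 70.4 and 62.3 FPKM in shCtrl libraries. The related SLC38A1 (SNAT1) had 30.3 and 39.7 FPKM in shFTO libraries, against 39.7 and 31.7 FPKM in shCtrl libraries. SLC1A5 (ASCT2), the main glutamine importer of many tumour cells, had 48.4 and 75.3 FPKM in shFTO libraries, against 68.6 and 78.1 FPKM in shCtrl libraries. The differences were 0.02, -0.03 and -0.27, each with an unadjusted limma p above 0.2. Their 95% intervals were wide, -0.58 to 0.63 for SLC38A2 and -0.84 to 0.29 for SLC1A5.

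SLC7A1 (CAT1), which imports arginine and lysine, depended on a single library. It had 15.6 and 30.3 FPKM in shFTO libraries, against 31.7 and 28.8 FPKM in shCtrl libraries, so that only shFTO replicate 1 stood low. The difference was -0.45 ± 0.30 (limma adjusted p = 0.628) with all 4 libraries, -0.91 without shFTO replicate 2 (limma adjusted p = 0.0445) and 0.0055 without shFTO replicate 1. Over all tested genes 2.0% passed without shFTO replicate 2 and 3.95% without shFTO replicate 1. SLC43A3, an equilibrative nucleobase carrier placed in this class by its family number, had 22.6 and 12.5 FPKM in shFTO libraries, against 25.8 and 22.2 FPKM in shCtrl libraries. Here shFTO replicate 2 stood low, and without shFTO replicate 1 the difference of -0.48 was -0.89 (limma adjusted p = 0.0390), against -0.079 without shFTO replicate 2 (limma adjusted p = 0.901). SLC43A3 also overlaps AP000781.2 on the same strand. In family SLC6 the taurine carrier SLC6A6 had 13.3 and 13.8 FPKM in shFTO libraries, against 12.7 and 11.5 FPKM in shCtrl libraries, a difference of 0.15 without overlap. The glutamate carriers SLC1A3 (EAAT1) and SLC1A1 (EAAT3) had differences of 0.37 and 0.32, also without overlap (limma adjusted p = 0.495 and 0.615). SLC38A4 and the lysosomal histidine and peptide carrier SLC15A4 were below shCtrl without overlap. SLC38A4 had 0.947 and 1.59 FPKM in shFTO libraries, against 1.94 and 1.87 FPKM in shCtrl libraries, and SLC15A4 had 3.12 and 3.02 FPKM in shFTO libraries, against 4.18 and 3.79 FPKM in shCtrl libraries. Their differences were -0.37 and -0.29 (limma adjusted p = 0.529 and 0.555).

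Of the carboxylate carriers 3 of 6 tested members had a difference above 0 and 3 below, and the class summed to 81.0 and 72.1 FPKM in shFTO libraries, against 93.0 and 83.0 FPKM in shCtrl libraries. SLC16A1 (MCT1), which moves lactate and other monocarboxylates together with a proton (hg19 chr1:113454469-113499635, minus strand), had 59.2 and 42.8 FPKM in shFTO libraries, against 73.2 and 61.7 FPKM in shCtrl libraries. Both shFTO values lay below both shCtrl values, and the difference was -0.41 ± 0.20 (95% interval -0.90 to 0.08; limma adjusted p = 0.521). Leaving out shFTO replicate 2 gave -0.18 and leaving out shFTO replicate 1 gave -0.64 (limma adjusted p = 0.723 and 0.0907). SLC16A6 (MCT7), described as a ketone body exporter in zebrafish, was low throughout, with 0.606 and 0.666 FPKM in shFTO libraries, against 1.06 and 1.097 FPKM in shCtrl libraries. Its difference was -0.34 ± 0.13 (limma adjusted p = 0.432), and the gene overlaps ARSG on the opposite strand. SLC16A6 passed the level filter only through shCtrl. SLC16A9 (MCT9), a carnitine carrier, had 4.27 and 2.22 FPKM in shFTO libraries, against 1.81 and 1.63 FPKM in shCtrl libraries. Its difference of 0.60 ± 0.26 (limma adjusted p = 0.473) was 0.95 without shFTO replicate 2 (limma adjusted p = 0.0484) and 0.24 without shFTO replicate 1 (limma adjusted p = 0.499).

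The metal carriers were the other class of high summed level, with 249 and 208 FPKM in shFTO libraries, against 238 and 252 FPKM in shCtrl libraries. Differences lay below 0 for 16 of 22 tested members and above 0 for 6 (median -0.12), and 2 had an unadjusted p below 0.05, both lower in shFTO. Of all tested genes 53.8% lay above 0, and 3.74% were lower at that p. The class count rested on single libraries, since without shCtrl replicate 2 it was 10 below and 12 above, with a median of 0.01. In the ZIP family SLC39, whose members move zinc into the cytosol, 9 of 10 differences lay below 0 (median -0.15). Of those 10 genes the groups overlapped for 7, whereas 42.6% of all tested genes had groups that did not overlap. Without shFTO replicate 2 only 5 of the 10 ZIP genes lay below 0. Quantile normalization left 8 of 10 below 0.

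SLC39A8 (ZIP8), which carries zinc and manganese (hg19 chr4:103172198-103352415, minus strand), had the lowest difference of any member. It stood at 4.46 and 2.41 FPKM in shFTO libraries, against 6.51 and 5.80 FPKM in shCtrl libraries, without overlap. The difference was -0.73 ± 0.25 (95% interval -1.36 to -0.10; limma adjusted p = 0.412). Without shFTO replicate 1, the less reduced library, it was -1.07 (limma adjusted p = 0.0252), and without shFTO replicate 2 it was -0.39 (limma adjusted p = 0.419). SLC39A14 (ZIP14), its closest relative and also a manganese carrier, had 25.4 and 24.3 FPKM in shFTO libraries, against 31.5 and 29.1 FPKM in shCtrl libraries (-0.28 ± 0.14, limma adjusted p = 0.527). These groups did not overlap. SLC39A7 (ZIP7), which releases zinc from the endoplasmic reticulum, was the highest of the family, at 63.3 and 60.1 FPKM in shFTO libraries, against 61.6 and 64.1 FPKM in shCtrl libraries. SLC39A6 (ZIP6) had 23.4 and 23.8 FPKM in shFTO libraries, against 25.2 and 23.1 FPKM in shCtrl libraries. Both differed by -0.03, with overlapping groups. SLC39A13 (ZIP13) was the only ZIP gene with a difference above 0, at 0.24.

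SLC39A1 (ZIP1) varied more between replicates than between groups. It had 40.7 and 7.98 FPKM in shFTO libraries, against 14.8 and 34.7 FPKM in shCtrl libraries, a difference of -0.30 ± 0.75. The gene overlaps CREB3L4 on the opposite strand. Of the ZnT family SLC30, which moves zinc out of the cytosol, 3 of 5 tested genes lay below 0. SLC30A1 (ZnT1), the zinc exporter of the plasma membrane, had 5.02 and 6.30 FPKM in shFTO libraries, against 8.66 and 7.41 FPKM in shCtrl libraries (-0.44 ± 0.18; limma adjusted p = 0.459). Its groups did not overlap. SLC30A5 and SLC30A7 load zinc into the secretory pathway. SLC30A5 had 10.1 and 11.4 FPKM in shFTO libraries, against 10.4 and 9.58 FPKM in shCtrl libraries, and SLC30A7 had 5.52 and 6.87 FPKM in shFTO libraries, against 4.45 and 4.36 FPKM in shCtrl libraries. They differed by 0.10 and 0.41 (limma adjusted p = 0.849 and 0.468), and only the groups of SLC30A7 did not overlap.

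Metallothioneins bind zinc and copper in the cytosol and are induced by zinc. Of a list of 13 zinc and copper handling genes 9 were tested, 3 with a difference above 0 and 6 below, none past the adjusted threshold. At an unadjusted limma p below 0.05, 2 were lower (MT1F and MT1M) and 0 higher, against 3.74% and 7.11% of all tested genes. MT1F had 1.23 and 0.905 FPKM in shFTO libraries, against 2.19 and 3.21 FPKM in shCtrl libraries (-0.83 ± 0.19, limma adjusted p = 0.280). MT1M had 1.58 and 1.60 FPKM in shFTO libraries, against 2.14 and 3.77 FPKM in shCtrl libraries (-0.58 ± 0.23, limma adjusted p = 0.458). Neither overlapped between groups, while the most abundant metallothionein, MT2A, did, at 142 and 171 FPKM in shFTO libraries, against 156 and 209 FPKM in shCtrl libraries. MT1E and MT1X overlapped too, with differences of -0.35 and 0.14. From the same list ATP7A had 1.28 and 2.14 FPKM in shFTO libraries, against 1.08 and 0.908 FPKM in shCtrl libraries, without overlap (0.42 ± 0.20, limma adjusted p = 0.499). The metallothioneins are near-identical in sequence, so how reads were divided among them is uncertain. Among other metals, the iron exporter SLC40A1 (ferroportin) had 1.49 and 1.35 FPKM in shFTO libraries, against 1.04 and 1.07 FPKM in shCtrl libraries (0.24 ± 0.14, limma adjusted p = 0.577). The copper importer SLC31A1 (CTR1) had 7.30 and 6.21 FPKM in shFTO libraries, against 9.17 and 7.45 FPKM in shCtrl libraries (-0.26 ± 0.18, limma adjusted p = 0.632). Neither pair of groups overlapped.

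**Figure D4:**
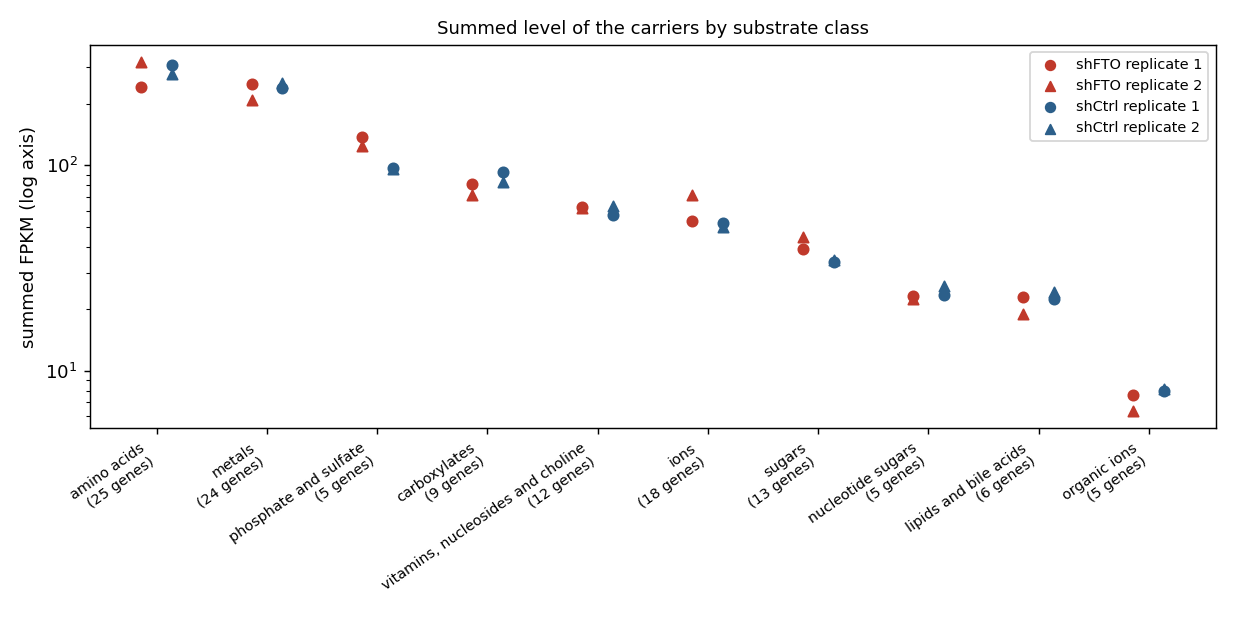
Summed FPKM (log axis) of the carriers by substrate class, set by family number, with every listed carrier of the class included. Each point is 1 library, red for shFTO and blue for shCtrl. Higher in shFTO without overlap are the phosphate and sulfate, sugar and ion classes, the first with 137 and 125 FPKM against 96.7 and 96.1 FPKM in shCtrl. The carboxylate, nucleotide sugar and organic ion classes lie lower without overlap, and the other plotted classes overlap. Of single tested genes 42.6% did not overlap either. Most of the carboxylate sum came from SLC16A1, and most of the phosphate and sulfate sum from SLC20A1. The nearest libraries were 23.2 FPKM (shFTO) and 23.4 FPKM (shCtrl) for nucleotide sugars, and 53.8 and 52.6 FPKM for ions.

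Golgi nucleotide sugar carriers supply donors for glycosylation. In subfamily SLC35A 2 of 5 genes had a difference above 0 and 3 below, all between -0.25 and 0.04. SLC35A1, which carries CMP-sialic acid, had 4.83 and 4.63 FPKM in shFTO libraries, against 5.17 and 5.38 FPKM in shCtrl libraries. SLC35A2, which carries UDP-galactose, had 1.68 and 1.79 FPKM in shFTO libraries, against 2.12 and 2.39 FPKM in shCtrl libraries. Both were below shCtrl without overlap (limma adjusted p = 0.789 and 0.583), while the highest of them, SLC35A4, had 12.96 and 11.7 FPKM in shFTO libraries, against 12.8 and 13.7 FPKM in shCtrl libraries, with overlap. Subfamilies SLC35B to SLC35G, which the symbol rule does not reach, had 16 tested genes, 6 above 0 and 10 below, and 1 with an unadjusted p below 0.05. That gene, SLC35F5, had 4.44 and 4.03 FPKM in shFTO libraries, against 6.64 and 5.98 FPKM in shCtrl libraries (-0.48 ± 0.16, limma adjusted p = 0.389).

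Carriers of vitamins, nucleosides and choline had 8 of 11 tested differences above 0 (median 0.06), against 53.8% of all tested genes. Of those above 0, SLC29A3 and SLC29A4 passed the level filter only through shFTO, the group in which they were higher. Without the filter 8 of 12 lay above 0 (median 0.05), and under quantile normalization 6 of 11 did. None had an unadjusted p below 0.05, against 10.9% of all tested genes. Leaving out shFTO replicate 2 gave a median of 0.24, and leaving out shCtrl replicate 2 gave 0.18. The nucleoside carrier SLC29A1 (ENT1), the highest of them, had 20.9 and 21.4 FPKM in shFTO libraries, against 18.5 and 22.7 FPKM in shCtrl libraries. The ascorbate carrier SLC23A2 had 4.60 and 8.92 FPKM in shFTO libraries, against 9.21 and 8.01 FPKM in shCtrl libraries. Both overlapped between groups, as did the folate carrier SLC19A1 and the thiamine carrier SLC19A2. The choline carriers pointed in opposite directions. SLC44A1 had 3.19 and 2.22 FPKM in shFTO libraries, against 4.21 and 3.36 FPKM in shCtrl libraries, and SLC44A2 had 4.26 and 3.998 FPKM in shFTO libraries, against 2.61 and 3.48 FPKM in shCtrl libraries. Their differences were -0.38 and 0.35 (limma adjusted p = 0.557 and 0.538), each without overlap.

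Lysosomal SLC17A5 (sialin), which exports sialic acid (hg19 chr6:74303102-74363878, minus strand), had 3.17 and 3.59 FPKM in shFTO libraries, against 1.72 and 2.27 FPKM in shCtrl libraries (0.55 ± 0.17; limma adjusted p = 0.360). The groups did not overlap. SLC17A9, the vesicular nucleotide carrier of the same family, differed by -0.03 with overlap. SLC22A15, of the organic ion family (hg19 chr1:116519119-116612675, plus strand), had 2.41 and 2.39 FPKM in shFTO libraries, against 3.64 and 3.31 FPKM in shCtrl libraries (-0.40 ± 0.15; limma adjusted p = 0.444), without overlap. Its relative SLC22A4, which carries ergothioneine, had 1.26 and 0.684 FPKM in shFTO libraries, against 1.72 and 1.31 FPKM in shCtrl libraries (-0.36 ± 0.20, limma adjusted p = 0.559). Among lipid carriers the fatty acid transport protein SLC27A4 differed by -0.04, with overlap, and 3 of 4 tested members lay below 0. SLC33A1, the acetyl-CoA carrier of the endoplasmic reticulum, had 3.09 and 2.82 FPKM in shFTO libraries, against 3.27 and 3.38 FPKM in shCtrl libraries (-0.13 ± 0.15, limma adjusted p = 0.791).

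The 5 suffix symbols included the highest difference of any member. SLC2A4RG, a transcription factor that binds the promoter of the insulin-responsive glucose carrier gene SLC2A4 (hg19 chr20:62371214-62374858, plus strand), had 18.6 and 22.01 FPKM in shFTO libraries, against 8.10 and 12.8 FPKM in shCtrl libraries. The groups did not overlap, and the difference was 0.92 ± 0.23 (95% interval 0.35 to 1.50; limma adjusted p = 0.288). SLC9A3R1 (NHERF1), a scaffold that anchors carriers and receptors to the actin cytoskeleton, had 13.6 and 14.6 FPKM in shFTO libraries, against 8.89 and 11.5 FPKM in shCtrl libraries (0.45 ± 0.17; limma adjusted p = 0.456). Without shCtrl replicate 1 this was 0.28 (limma adjusted p = 0.979). Its relative SLC9A3R2 (NHERF2) had 13.1 and 9.31 FPKM in shFTO libraries, against 11.7 and 14.8 FPKM in shCtrl libraries, with overlap. SLC4A1AP (kanadaptin) had 8.84 and 8.85 FPKM in shFTO libraries, against 10.4 and 11.8 FPKM in shCtrl libraries (-0.30 ± 0.15, limma adjusted p = 0.538). SLC7A6OS, which overlaps SLC7A6 on the opposite strand, differed by -0.10. Without these 5 symbols 8 carriers were higher and 5 lower at an unadjusted p below 0.05.

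Genes that serve or regulate the carriers were examined from lists. Of 10 tested kinases and ligases that act on carriers 4 had a difference above 0 and 6 below, against 53.8% above 0 among all tested genes. An unadjusted p below 0.05 was seen for 2 of the 10, against 10.9% of all tested genes. NEDD4L, a ubiquitin ligase that removes carriers and channels from the cell surface, had 4.70 and 4.48 FPKM in shFTO libraries, against 8.10 and 8.47 FPKM in shCtrl libraries (-0.73 ± 0.15; limma adjusted p = 0.225). OXSR1, a kinase that phosphorylates the cation-chloride cotransporters of family SLC12, had 17.2 and 18.5 FPKM in shFTO libraries, against 25.7 and 23.8 FPKM in shCtrl libraries (-0.45 ± 0.14, limma adjusted p = 0.365). Both lay below shCtrl without overlap, and neither passed. Of the sodium-potassium pump list 2 of 6 genes lay above 0. The regulatory subunit FXYD6 had 2.55 and 2.59 FPKM in shFTO libraries, against 1.505 and 1.73 FPKM in shCtrl libraries (0.45 ± 0.15, limma adjusted p = 0.387). Chaperones and scaffolds had 2 of 8 differences above 0 and none with an unadjusted p below 0.05. The highest of them, BSG (basigin, which escorts MCT1 to the surface), had 59.8 and 47.7 FPKM in shFTO libraries, against 43.4 and 54.6 FPKM in shCtrl libraries. Only SLCO4A1 was tested of the organic anion carriers SLCO, with a difference of 0.16. Of the 6 carriers that the rule leaves out, 1 lay above 0 and 5 below, none with an unadjusted p below 0.05, the highest being SLC7A5 with 45.2 and 37.6 FPKM in shFTO libraries, against 46.6 and 53.4 FPKM in shCtrl libraries.

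The spread between replicates of a group was as large as many of these differences. The median gap between the 2 libraries, on the log2(FPKM + 1) scale over the tested members, was 0.213 in shFTO and 0.171 in shCtrl, against 0.212 and 0.152 over all tested genes. Replicates lay 1 or more apart for 3 members in shFTO (2.63%, against 3.23% of all tested genes) and for 3 in shCtrl (2.63%, against 1.14%). When each library was left out in turn, 86 of the 114 tested differences moved by more than 1.5 times or changed sign at least once, and 39 changed sign. Of the 15 with an unadjusted p below 0.05 this held for SLC39A8 and SLC9A3R1. Those 15 were picked for differences large against the replicate spread of these same libraries, so their smaller movement is no separate support. SLC39A1 and SLC7A2 (CAT2, an arginine and lysine carrier) were far apart in both groups. SLC7A2 had 4.50 and 1.44 FPKM in shFTO libraries, against 9.20 and 1.42 FPKM in shCtrl libraries. The lysosomal amino acid carrier SLC36A1 had 3.36 and 4.29 FPKM in shFTO libraries, against 3.71 and 0.714 FPKM in shCtrl libraries, where a single shCtrl library stood low. Overlap with another listed gene was found for 38 members, 6 on the same strand and 32 on the opposite strand. Those on the opposite strand include SLC1A5, SLC4A8, SLC16A6, SLC35A4, SLC39A1, SLC39A7 and SLC4A1AP, and their levels are uncertain to that extent. The sources used here do not say whether reads were counted by strand.

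**Figure D5:**
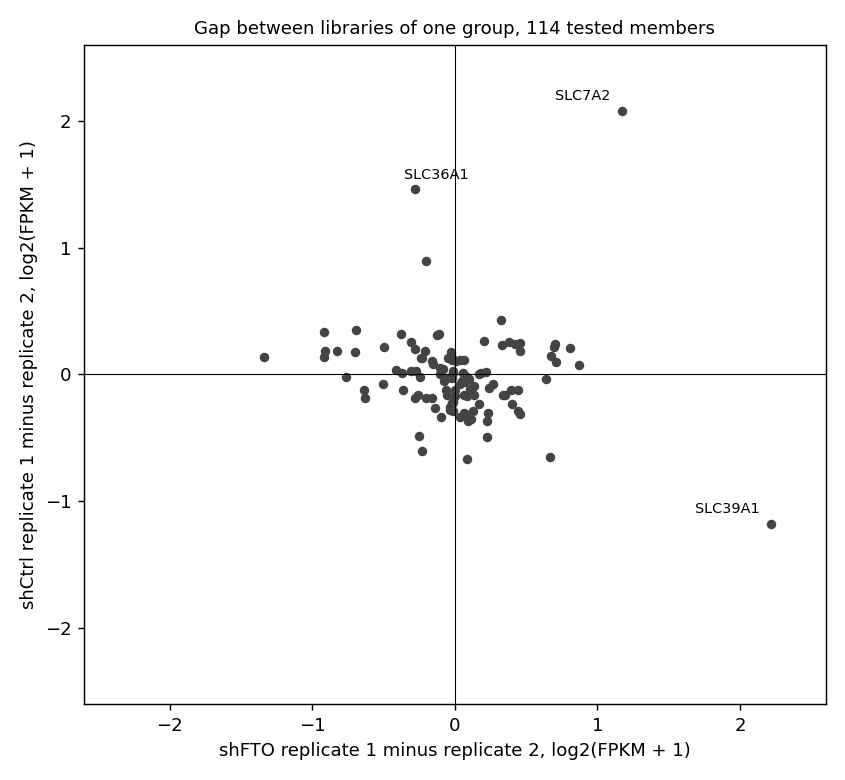
Gap between replicate 1 and replicate 2 of shFTO (x axis) and of shCtrl (y axis), both on the log2(FPKM + 1) scale, for the 114 tested members, 1 point per gene. Most points lie near the origin, and the 3 named genes, SLC39A1, SLC7A2 and SLC36A1, have replicates 1 or more apart in at least 1 group.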

How the data were processed

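RNA of 2 shFTO and 2 shCtrl samples was selected on oligo(dT) beads and its second cDNA strand made with dUTP, per the labels' protocols. Tools listed in the submitters' processing notes are STAR 2.5.2b, StringTie, HISAT2 2.0.5 and cutadapt, with the build hg19 and no roles given. The authors deposited FPKM per library for 11972 genes, per the file headers. Their group columns equal means of log2(FPKM + 1), and the deposited log2 fold change and fold, a ratio, come from those means. P-values and q-values that the authors deposited are quoted only where named. Gene coordinates are those of the deposited table. Low values showed no whole-read steps (strongest periodicity 0.0985 to 0.105, under the highest of the jittered sets in each library), so depth is unknown and counting intervals could not be given.

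Differences were tested in R 4.3.3 with limma 3.58.1, applied to log2(FPKM + 1) with a trended prior variance and without a block. A gene needed 1 FPKM or more in 2 or more libraries. Benjamini-Hochberg adjustment ran over all 10873 tested genes, and 0.05 was the threshold. The procedure was tested on simulated data, with larger differences than any member showed, placed in genes of higher level than the median member. It therefore does not show how often differences of the members' size are found. The members and lists were chosen with earlier results of these data known. Named were the 10 tested members with the smallest p in each direction, the 10 highest, the highest of each family with at least 4 tested members and any of its members with p below 0.05, and, of the related lists, the highest and those with p below 0.05. Other members were named for their known function after their values were seen. Some genes that this rule selects are not reported here. GGACT was counted, on the transcript strand, in the principal or longest GENCODE 29 transcript, with 99.3% of tested genes matched. As alternatives, the pseudocount was 0.1, the level filter was dropped or set to a mean of 5 FPKM, values were scaled by quantiles or by median ratios, the trend was dropped, a replicate block was added and each library was left out.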

Additional observations from a re-analysis of the deposited data

How the results depend on the processing

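With 2 libraries per group and unknown depth, no count of adjusted calls was stable. The 3 calls over all tested genes became 0 with a pseudocount of 0.1, 1 without a level filter, 1 with median-ratio scaling, 1 without the trend, and 0 to 429 when a library was left out. Leaving out shFTO replicate 1 gave 429, and leaving out shFTO replicate 2 gave 217; the lone library was then assumed to vary like the other group. Calls among the members were 0 in the other settings and 0 to 3 when a library was left out, 3 without shFTO replicate 1 (among them SLC39A8 and SLC43A3; background 3.95%) and 2 without shFTO replicate 2 (SLC7A1 and SLC16A9; background 2.0%). Members with an unadjusted p below 0.05 numbered 3 when a mean of 5 FPKM was required (3 higher and 0 lower) and 6 to 34 when a library was left out (6 to 23 higher, 0 to 11 lower). For these settings the share of all tested genes at that p is not given, so these counts are no result about the members. Among members that overlap no other listed gene, a setting chosen after seeing the data, 3 were lower at that p. The members' median difference was -0.03 when a mean of 5 FPKM was required and 0.02 to 0.10 when a library was left out. Under quantile or median-ratio scaling the median of all tested genes was -0.005 or -0.0087, against 0.0221 unscaled.

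Same-numbered libraries of the groups deviated with a correlation of -0.192, so the numbers were not taken as pairs. With a replicate block 15 genes passed over all tested genes, 0 members passed, and 11 members had an unadjusted p below 0.05, 1 of them lower. The share of all tested genes at that p with this block is not given, so the 11 are no result about the members. With the crossed pairing, added after seeing the data, 0 genes passed, and 16 members had an unadjusted p below 0.05, 13 higher and 3 lower, against 13.2% of all tested genes.

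Of 371 recomputed differences of 32 named members, 354 kept their direction and their side of the threshold, 2 newly passed (SLC39A8 and SLC7A1, given in the results) and 15 changed sign, in 8 members; the cause was not tested. Scaling changed the sign of SLC38A2 (-0.013 by median ratios), SLC39A7 (0.04 by quantiles) and SLC38A1 (0.021 by quantiles). When a library was left out, the differences ranged from -0.33 to 0.37 for SLC38A2, from -0.59 to 0.041 for SLC1A5, from -0.063 to 0.0089 for SLC39A7, from -0.22 to 0.16 for SLC38A1, from -0.91 to 0.0055 for SLC7A1, from -1.41 to 0.81 for SLC39A1, from -0.091 to 0.026 for SLC39A6 and from -0.10 to 0.18 for SLC29A1.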
